A study of Mus musculus with 19 samples.

Results

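Astrocytes clear the glutamate released at synapses, turn it into glutamine, take up potassium and are joined to each other by gap junctions. The homeostatic astrocyte genes described here encode proteins of these tasks and a few regulators of astrocyte identity: Slc1a2, Slc1a3, Glul, Gja1, Gjb6, Aldh1l1, Aldoc, S100b, Sox9 and Fgfr3. They were taken by name, as Ensembl identifiers with these mouse symbols. No measured value entered that rule, but the list was chosen with earlier results of these data known. All 10 were found among the 55487 genes of each table, and all 10 were among the 19105 genes that passed the expression filter and were tested. Around injury and protein deposits, astrocytes become reactive and make more of the filament proteins encoded by Gfap and Vim, and activated microglia turn on Cst7, which encodes the protease inhibitor cystatin F.

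Levels were read by RNA sequencing of cerebral cortex from male P301S/E4 mice, whose genotype label names a tau mutation and the E4 form of apolipoprotein E. The lemborexant group had 10 libraries and the vehicle group 9. Lemborexant, which blocks both orexin receptors, was given once a day at 30 mg/kg by gavage at zeitgeber time 13, from 7.5 to 9.5 months of age, while controls received 0.5% methylcellulose alone. Both groups share genotype, sex, tissue and an age of 41 weeks, so no library with another genotype label was compared. The labels give neither the promoter that drives the mutant tau nor how the E4 allele was introduced, and they do not tie libraries to individual animals, so a p-value here covers library-to-library spread, which may be partly technical.

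Each library held 20185098 to 31795633 estimated reads on genes, of which lemborexant libraries held 22993714 to 31795633 and vehicle libraries 20185098 to 29948038. Levels are CPM, the reads of a gene scaled to a common library total, with TMM factors unless TPM is named. Lemborexant libraries 1 and 10, 3 and 8, and 4 and 9 were nearly alike. A chi-square of their counts, divided by its degrees of freedom, gave 3.08 to 3.66, where the remaining 168 library pairs gave 12.2 to 274, so the treatment results of the 10 genes are also given with these pairs summed, as 7 units against 9. The labels' library numbers run from 1064 to 1602 for 7 libraries of each group and from 859 to 933 for 3 lemborexant and 2 vehicle libraries, and each nearly alike pair joins the 2 number ranges. Within both ranges the lemborexant numbers come before the vehicle numbers, so number order and treatment cannot be told apart.

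Against the shared genotype label, 4 libraries lacked the marks of gliosis seen in the other 15. Cst7 was at 16.4 to 144 CPM in the 15 libraries, against 0.115 and 0.253 CPM in lemborexant 1 and 10 and 0 and 0.188 CPM in vehicle 1 and 4. Gfap was at 3023 to 8699 CPM in the 15 and at 430.5 to 582 CPM in those 4. Prnp, whose mouse promoter drives tau in a widely used P301S line, was at 1005 to 2137 CPM in the 15 and at 662 to 1036 CPM in the 4. Whether the 4 carry the labelled genotype was not tested, so the split by gliosis and a split by genotype cannot be told apart. The treatment results of the 10 genes are therefore also given without the 4 libraries, as 8 lemborexant against 7 vehicle libraries.

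Genes of other brain regions differed between the groups. Signs of RNA quality overlapped between them with medians apart, and were not tested. Of 12 hippocampal field genes, all 12 had lower fitted levels in lemborexant libraries and 4 passed the edgeR test described below, where 2.61% of all genes tested did, with a summed level of 141 to 585 CPM in lemborexant and 476 to 792 CPM in vehicle libraries. Of 11 tested genes of the thalamus and diencephalon, all 11 had higher fitted levels and 4 passed, with sums of 135 to 2178 CPM in lemborexant, highest in lemborexant 7, and 112 to 179 CPM in vehicle libraries. With nearly alike libraries summed 0 of the 12 and 0 of the 11 passed, where 0% of all genes did (4102 genes at an unadjusted p under 0.05 in edgeR). Without the 4 libraries lacking gliosis 6 and 2 passed, where 2.71% of all genes did. Of 12 striatal genes, 11 had higher fitted levels and 1 passed in all 19 libraries, where 2.61% of all genes tested did. Their sums were 151 to 482 CPM in lemborexant libraries, highest in the nearly alike 4 and 9, and 141 to 181 CPM in vehicle libraries. With pairs summed, and also without the 4 libraries, 0 of these 12 striatal genes passed. Choroid plexus and ependymal genes summed to 159 to 10629 CPM in lemborexant and 63.3 to 8488 CPM in vehicle libraries. Mitochondrial transcripts took 4.32% to 7.19% of reads in lemborexant and 4.94% to 9.002% in vehicle libraries, with medians of 4.81% and 6.07%. In lemborexant libraries 18482 to 20246 genes were detected and in vehicle libraries 17237 to 19243, with medians of 19451 and 18464. The part of all these in the treatment results was not tested beyond the fits named below.

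The sequences just upstream of 3 of the genes are shown because S100b and Gja1 had the largest differences, among genes with a RefSeq promoter entry, between libraries with and without gliosis, while Fgfr3 differed in the opposite direction. RefSeq's table on GRCm38.p6 held an entry for 9 of the 10 genes and none for Sox9. Capitals mark matches, on either strand, to the AP-1 motif TGANTCA, the NFI motif TTGGC and the GC box GGGCGG. The SOX motif ACAAT and the STAT motif TTCNNNGAA were also searched and have no match in these 3 stretches. The Gja1 stretch lies on the plus strand at chr10:56377050-56377299, the S100b stretch on the plus strand at chr10:76253586-76253835, and the Fgfr3 stretch on the plus strand at chr5:33721474-33721673, where the printed bases stop before the first annotated Fgfr3 exon.
Gja1: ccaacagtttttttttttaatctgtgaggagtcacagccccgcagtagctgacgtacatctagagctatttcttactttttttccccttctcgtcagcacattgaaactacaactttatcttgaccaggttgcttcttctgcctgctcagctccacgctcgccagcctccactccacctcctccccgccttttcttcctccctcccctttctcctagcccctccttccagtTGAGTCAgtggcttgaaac
S100b: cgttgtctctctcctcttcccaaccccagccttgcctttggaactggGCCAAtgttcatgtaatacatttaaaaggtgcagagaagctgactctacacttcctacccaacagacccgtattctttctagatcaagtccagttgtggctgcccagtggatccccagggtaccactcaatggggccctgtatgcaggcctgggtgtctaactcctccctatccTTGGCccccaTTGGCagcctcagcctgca
Fgfr3: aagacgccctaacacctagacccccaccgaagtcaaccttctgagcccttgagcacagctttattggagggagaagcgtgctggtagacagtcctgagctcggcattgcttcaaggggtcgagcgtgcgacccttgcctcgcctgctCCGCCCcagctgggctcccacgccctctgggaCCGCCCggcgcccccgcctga
The Gja1 stretch holds 1 AP-1 match, the S100b stretch 3 NFI matches and the Fgfr3 stretch 2 GC boxes. A further Fgfr3 entry on the plus strand, at chr5:33722056-33722305, is not printed and also holds 2 GC boxes. Of 32851 mouse promoter windows of 250 bases, 6.75% hold an AP-1 match, 41.5% an NFI match and 32.7% a GC box. The printed Fgfr3 stretch has 200 bases, so these shares are not matched to its length. These matches describe the letters only.

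Lemborexant did not detectably change any of the 10 genes. In edgeR's quasi-likelihood test with Benjamini-Hochberg adjustment over all genes, 0 of 10 passed 0.05, where 2.61% of all genes tested did. An unadjusted p under 0.05 was found for 0 of 10, against 4911 of all 19105 genes tested. The log2 changes, lemborexant minus vehicle, ran from -0.14 for Aldoc to 0.24 for Sox9, with 5 above and 5 below 0 and a median of 0.02, against 0.03 for all genes tested. The 95% intervals of the 10 fold changes together spanned 0.642-fold to 1.57-fold. Lemborexant and vehicle libraries overlapped for each of the 10 genes, where 0.194% of all genes tested had no overlap. Gene positions below are those of GENCODE M21 on GRCm38. Exons of 4 of the genes, Slc1a2, Glul, Aldh1l1 and Fgfr3, overlap exons of other annotated genes, and the strand setting of the counting is not stated in the sources used here. Reads of such partners cannot be told apart. In bulk tissue, fewer astrocytes and less RNA per astrocyte cannot be told apart.

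**Figure D1:**
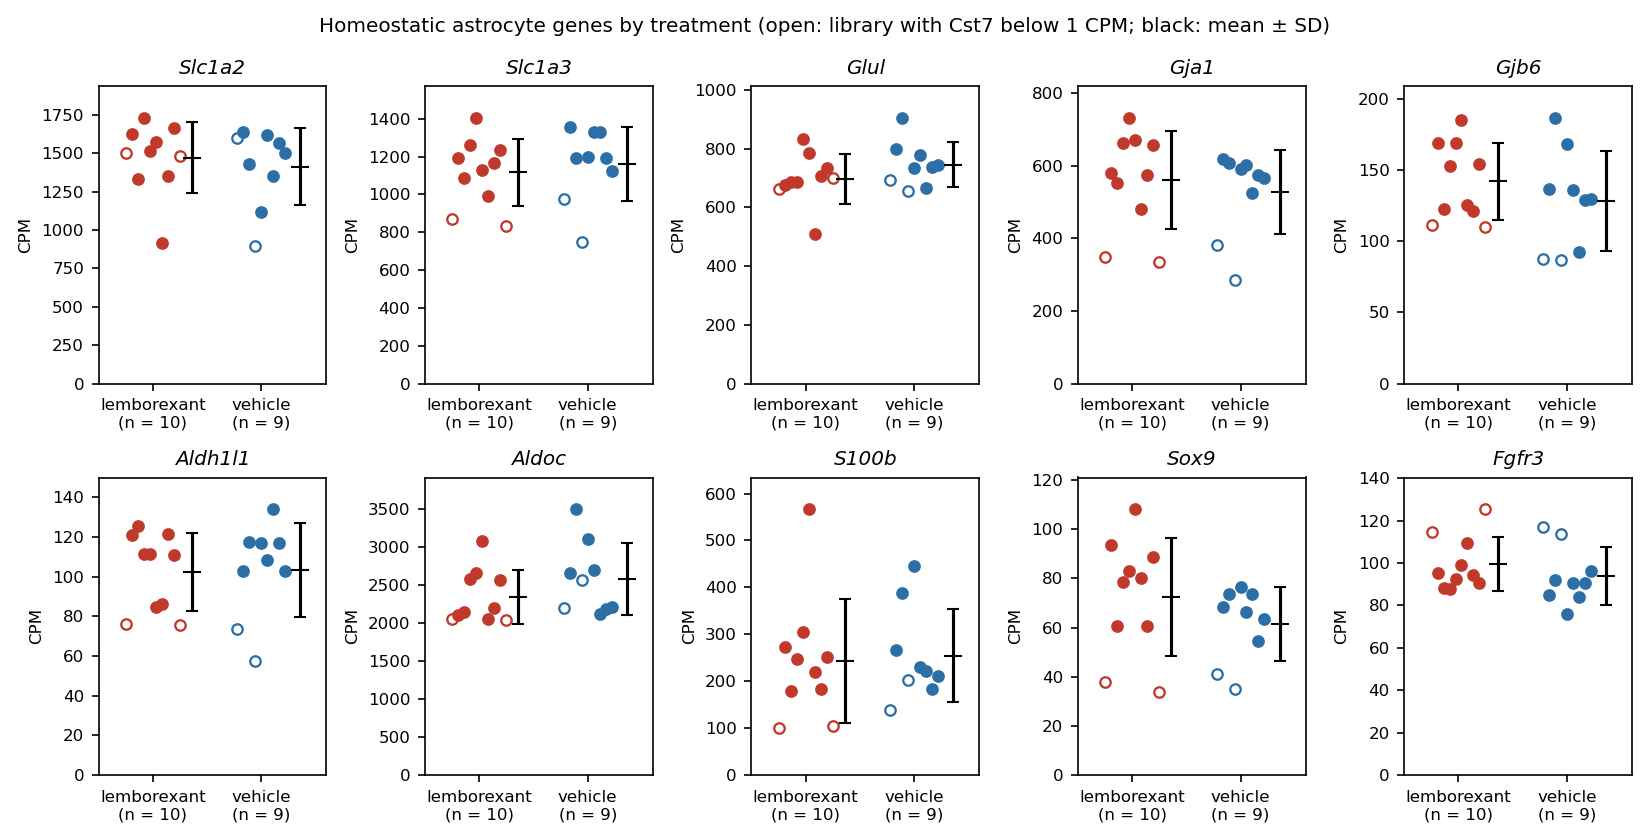
Levels of the 10 genes in each library, in CPM with TMM scaling, for 10 lemborexant (red, left) and 9 vehicle libraries (blue, right); black bars are the mean and SD and open circles are the 4 libraries with Cst7 below 1 CPM. Every panel shows overlapping groups, and for Gja1, Sox9, Slc1a3 and Aldh1l1 the open circles are the lowest points.

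Slc1a2 (chr2:102658659-102790784) encodes GLT-1 and Slc1a3 (chr15:8634124-8710764) encodes GLAST, the main astrocytic glutamate transporters, and Glul (chr1:153899944-153909723) encodes glutamine synthetase, which turns the captured glutamate into glutamine. Slc1a2 was at 919 CPM in the lowest, 1511 CPM in the median and 1732 CPM in the highest lemborexant library, and at 898, 1500.1 and 1641 CPM in vehicle libraries. The groups covered nearly the same range, with lemborexant 7, vehicle 4 and vehicle 5 as the 3 lowest libraries, and the log2 change was 0.06 ± 0.12 (SE; edgeR adjusted p = 0.804). Slc1a3 ran from 832 through 1147 to 1405 CPM in lemborexant libraries and from 747 through 1192 to 1355 CPM in vehicle libraries (lowest, median, highest), a log2 change of -0.05 ± 0.12 (edgeR adjusted p = 0.799). Glul ran from 508 through 693 to 833 CPM in lemborexant libraries and from 657 through 736 to 905 CPM in vehicle libraries. Its group means were 698 ± 85.2 CPM in lemborexant and 746 ± 76.4 CPM in vehicle libraries (SD, n = 10 and 9), and its log2 change was -0.10 ± 0.09 (edgeR adjusted p = 0.500).

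The gap junction genes Gja1 (chr10:56377330-56402513) and Gjb6 (chr14:57123303-57133611) encode connexin 43 and connexin 30, which couple astrocytes into networks. Gja1 ran from 336 through 579 to 732 CPM in lemborexant libraries and from 284 through 575 to 617 CPM in vehicle libraries. Lemborexant 5, at 732 CPM, was the highest library, and the 2 lowest libraries of each group were those without gliosis. Its log2 change was 0.09 ± 0.16 (edgeR adjusted p = 0.768). Gjb6 averaged 142 ± 27.1 CPM in lemborexant and 128 ± 35.03 CPM in vehicle libraries (SD, n = 10 and 9), with lemborexant 6 at 185 CPM and vehicle 3 at 186 CPM as the highest library of each group. Its log2 change was 0.15 ± 0.15 (edgeR adjusted p = 0.535).

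Aldh1l1 (chr6:90486427-90600203) encodes the folate enzyme that is widely used to label astrocytes, and Aldoc (chr11:78322968-78327781) encodes the brain form of the glycolytic enzyme aldolase. Aldh1l1 averaged 102 ± 19.7 CPM in lemborexant and 103 ± 23.8 CPM in vehicle libraries (SD, n = 10 and 9), a log2 change of -0.01 ± 0.14 (edgeR adjusted p = 0.959). Aldoc, the most abundant of the genes, ran from 2038 through 2174 to 3088 CPM in lemborexant libraries and from 2122 through 2570.0 to 3500.0 CPM in vehicle libraries. The groups overlapped, with vehicle 3 and vehicle 5 above every lemborexant library, and the log2 change was -0.14 ± 0.11 (edgeR adjusted p = 0.459). S100b (chr10:76253853-76261159) encodes a calcium-binding protein that astrocytes also secrete. It varied most between libraries, with a coefficient of variation of 54.3% in lemborexant and 39.1% in vehicle libraries. It ran from 100.5 through 234 to 566 CPM in lemborexant libraries and from 139 through 222 to 446 CPM in vehicle libraries, a log2 change of -0.06 ± 0.28 (edgeR adjusted p = 0.905).

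The receptor and transcription factor genes were among the least abundant. Sox9 (chr11:112782224-112787760) encodes a transcription factor that sets glial fate and is kept on in astrocytes, and Fgfr3 (chr5:33721674-33737068) encodes an FGF receptor found on astrocytes and their progenitors. Sox9 was at 37.7, 93.6, 60.9, 78.7, 83.0, 108, 80.2, 60.8, 88.7 and 33.6 CPM in lemborexant libraries 1 to 10. In vehicle libraries 1 to 9 it was at 41.0, 68.5, 73.9, 34.9, 76.7, 66.2, 73.7, 54.6 and 63.7 CPM. The 6 highest libraries were lemborexant libraries, among them the nearly alike 4 and 9, and the 2 lowest of each group were those without gliosis, so the groups overlapped over the whole vehicle range. Its log2 change was 0.24 ± 0.20 (edgeR adjusted p = 0.459). Fgfr3 averaged 99.6 ± 12.6 CPM in lemborexant and 93.9 ± 13.5 CPM in vehicle libraries (SD, n = 10 and 9), a log2 change of 0.09 ± 0.09 (edgeR adjusted p = 0.563).

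The count of called genes stayed at 0 when the scale was changed and when libraries were summed or left out. On log2(TPM + 1), 10 of 10 changes were above 0 with a median of 0.26, against 0.18 for all genes. There 3 genes had an unadjusted p under 0.05 in limma (Gjb6 0.00893, Fgfr3 0.0408 and Sox9 0.0494), as did 4907 of all 16600 genes tested. On that scale 0 of 10 passed (lowest adjusted p = 0.0910), where 0.711% of all genes did. With the nearly alike libraries summed, 0 of 10 genes passed in edgeR, where 0% of all genes did and 4102 genes had an unadjusted p under 0.05. The log2 changes then ran from -0.11 for Aldoc to 0.34 ± 0.20 for Sox9 (edgeR adjusted p = 0.322), with S100b at 0.09 and thus of the other sign. Without the 4 libraries lacking gliosis, 0 of 10 passed, where 2.71% of all genes did. Sox9 alone of the 10 then had an unadjusted p under 0.05 in edgeR, as did 4535 of all 19230 genes tested. Its log2 change was 0.26 ± 0.12 (edgeR p = 0.0437, adjusted p = 0.199), with a 95% interval from 0.01 to 0.51. In those 15 libraries Sox9 was at 60.8 to 108 CPM in the 8 lemborexant and 54.6 to 76.7 CPM in the 7 vehicle libraries. With the pairs summed as well, Sox9 was at 0.32 ± 0.12 (edgeR p = 0.0191, adjusted p = 0.168), where 0% of all genes passed and 3928 had an unadjusted p under 0.05. Among libraries numbered 1064 to 1602 the 10 log2 changes ran from -0.17 to 0.32 and 0 passed in edgeR, where 0.0422% of all genes did. Among those numbered 859 to 933 they ran from -0.13 to 0.15 and 0 passed, where 0% of all genes did and 910 had an unadjusted p under 0.05.

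**Figure D2:**
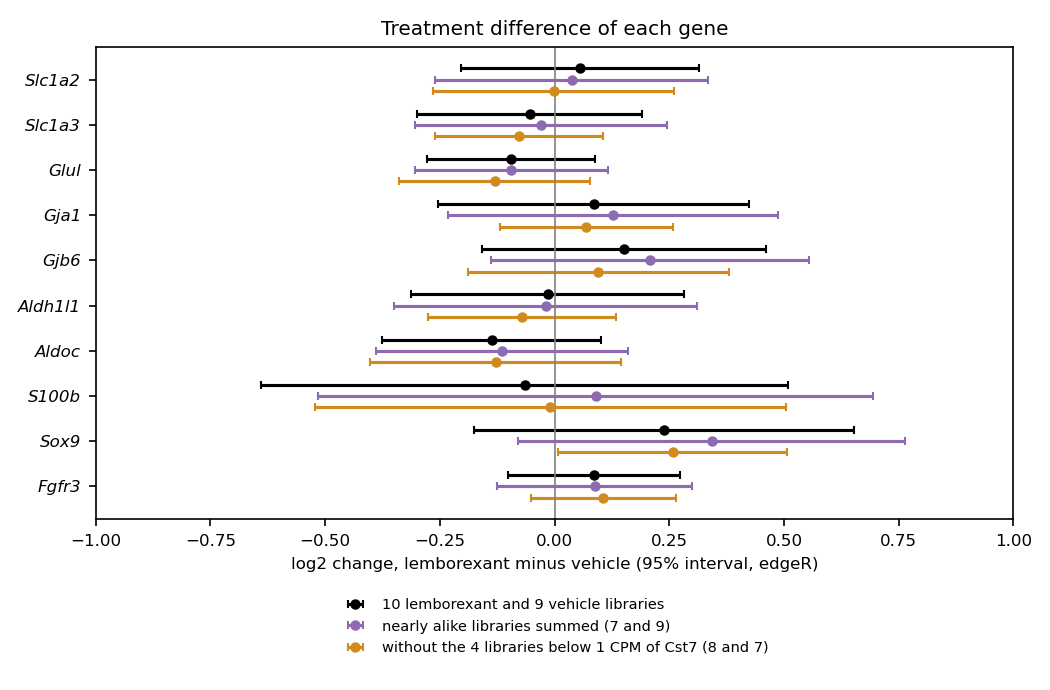
Log2 change of each gene, lemborexant minus vehicle, with its 95% interval from edgeR, in all 10 and 9 libraries (black), with nearly alike libraries summed (purple, 7 and 9) and without the 4 libraries below 1 CPM of Cst7 (orange, 8 and 7). Every interval crosses 0 except that of Sox9 without the 4 libraries, which runs from 0.01 to 0.51 and has an adjusted p of 0.199.

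Most of the genes were higher in libraries with gliosis. Of the 10 genes, 9 had the higher median there, though that of Slc1a2 was the lower in plain CPM and TPM, and Fgfr3 had a lower one. Libraries were set apart by Cst7, 15 with at least 1 CPM against 4 with less; since this divides libraries by a measured level, the values are a description without a test. The median of the 10 folds, each the median of the 15 libraries over the median of the 4, was 1.39, against 0.991 for all genes tested. In the 15 libraries 4 genes were higher without overlap (Gja1, Sox9, Slc1a3 and Aldh1l1) and 1 lower without overlap (Fgfr3), where 6.33% of all genes were higher and 2.27% lower without overlap. Lemborexant 1 and 10 are a nearly alike pair, so the 4 libraries may stand for 3 samples. Vehicle 4 had the highest mitochondrial share (9.002%) and the fewest genes detected (17237) of all 19 libraries. It was also the lowest of the 19 for Slc1a2, Slc1a3, Gja1, Gjb6 and Aldh1l1. The part of RNA quality in these folds was not tested.

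S100b, Sox9 and Gja1 had the largest folds. Sox9 was at 54.6 CPM in the lowest, 73.9 CPM in the median and 108 CPM in the highest of the 15 libraries, against 37.7, 33.6, 41.0 and 34.9 CPM in lemborexant 1, lemborexant 10, vehicle 1 and vehicle 4, a fold of medians of 2.04. Gja1 was at 482, 591 and 732 CPM in the 15 libraries, against 349.7, 336, 382 and 284 CPM in the same 4, a fold of 1.72. Neither gene overlapped in TMM-scaled CPM, in plain CPM or in TPM. S100b was at 179, 248 and 566 CPM in the 15 libraries, against 100.5, 104, 139 and 202 CPM in the 4, a fold of 2.04. It overlapped because vehicle 4 exceeded vehicle 8 and the nearly alike lemborexant 8 and 3 among the 15, and it did not overlap in plain CPM or TPM.

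The other genes moved less. Slc1a3 was at 994, 1192 and 1405 CPM in the 15 libraries, against 871, 832, 973 and 747 CPM in the 4, a fold of 1.40. Aldh1l1 was at 84.5, 112 and 134 CPM, against 76.0, 75.4, 73.7 and 57.4 CPM, a fold of 1.497. Slc1a3 and Aldh1l1 did overlap in TPM. Gjb6 had a fold of 1.39, Aldoc of 1.205 and Glul of 1.08, each with overlap. Slc1a2 was at 919, 1516 and 1732 CPM in the 15 libraries, against 1506, 1481, 1599 and 898 CPM in the 4. Its fold of 1.02 was 0.998 in plain CPM and 0.918 in TPM, so the GLT-1 transcript had no steady direction while the GLAST transcript was higher. Fgfr3 was at 76.0, 90.6 and 109.5 CPM in the 15 libraries, against 114, 125, 117 and 114 CPM in the 4, a fold of 0.784, and it overlapped in plain CPM and in TPM.

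**Figure D3:**
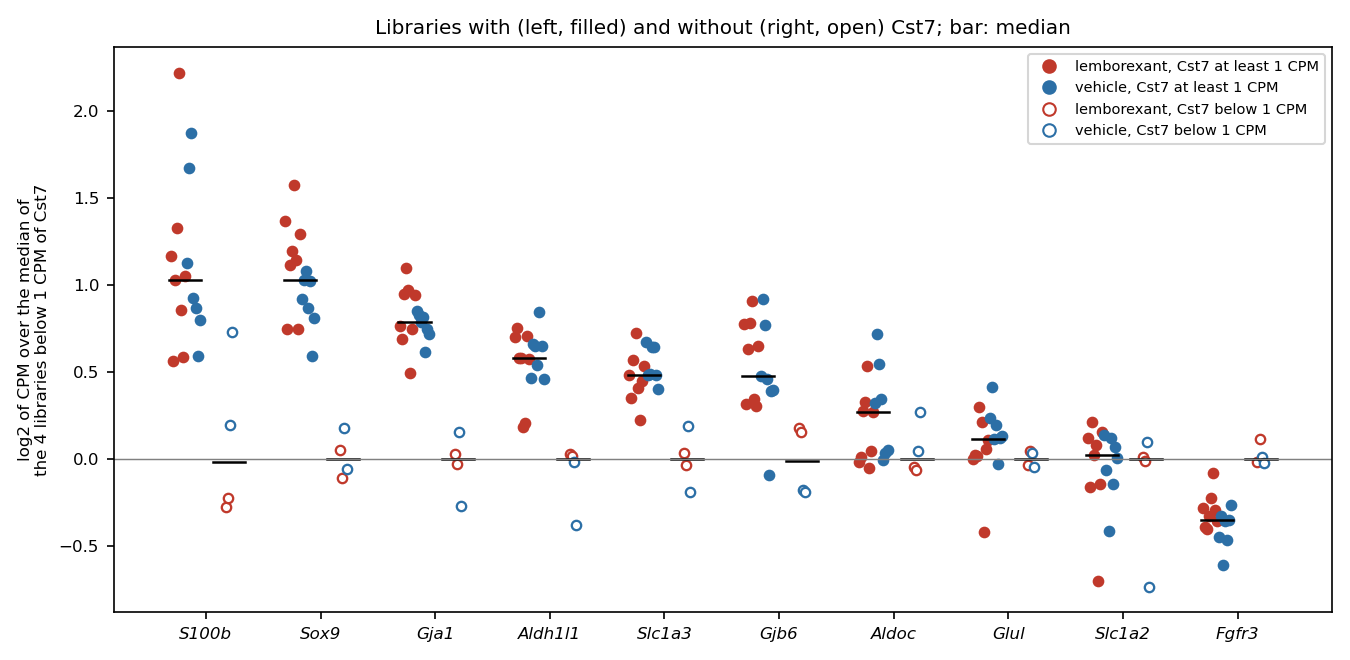
Log2 of each library's CPM over the median of the 4 libraries below 1 CPM of Cst7, for the 15 libraries with at least 1 CPM (filled, left) and the 4 below (open, right), red for lemborexant and blue for vehicle, with bars at the medians. S100b and Sox9 have the largest medians in the 15 libraries, both a fold of 2.04, Slc1a2 and Glul lie near 0, and Fgfr3 is the gene below 0.

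Markers of several other cell types moved along the same split. Oligodendrocyte precursor genes summed to 169 to 206 CPM in the 15 libraries and 159 to 196 CPM in the 4. Endothelial genes summed to 329 to 632 CPM in the 15 and 294 to 378 CPM in the 4. In both of these lists 0 genes were higher and 0 lower without overlap, though 7 of 8 and 7 of 10 had the higher median in the 15. Over all genes tested, 6.33% were higher and 2.27% lower without overlap in the 15 libraries. Reactive astrocyte genes summed to 3705 to 10829 CPM in the 15 libraries and 675 to 787 CPM in the 4, and 12 of 20 were higher without overlap. Gfap differed by a fold of medians of 10.97, Vim by 6.04, C4b, a complement gene, by 7.50 and Serpina3n, a secreted protease inhibitor, by 4.66. Activated microglia genes summed to 2185 to 8300.1 CPM in the 15 and 775 to 934 CPM in the 4, with 14 of 15 higher without overlap, among them Cst7, on which the split rests. Homeostatic microglia genes summed to 656 to 1733 CPM in the 15 and 355 to 558 CPM in the 4, with 4 of 10 higher without overlap. Oligodendrocyte genes summed to 5627.6 to 15431.5 CPM in the 15 and 4788.5 to 7971.8 CPM in the 4. Of these, 10 of 10 had the higher median in the 15 and 2 were higher without overlap. Pan-neuronal genes summed to 4330 to 9330 CPM in the 15 and 10424 to 11058 CPM in the 4, with 4 of 10 lower without overlap. Snap25, which encodes a synaptic vesicle fusion protein, was at 1592 to 4045 CPM in the 15 and at 4597 to 5363 CPM in the 4. Because CPM is a share of all RNA, the part of this shift in the astrocyte folds was not tested.

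Among 30 other homeostatic astrocyte genes, 26 had a higher median in the 15 libraries. Of the 30, 9 were higher without overlap, where 6.33% of all genes tested were: Slc4a4, Kcnj10, Atp1b2, Mlc1, Acsbg1, Phgdh, Slc38a3, Gpr37l1 and Ntrk2. None of the 30 was lower without overlap, where 2.27% of all genes tested were. Their sum was 6127 to 8014 CPM in the 15 libraries and 4564 to 5425 CPM in the 4. Kcnj10, which encodes the Kir4.1 potassium channel, had a fold of 1.92, Mlc1, an end-foot membrane protein gene, of 2.19, and Slc7a10, a serine transporter gene, of 1.503. Slc6a11, which encodes the GABA transporter GAT-3, had a fold of 0.976.

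Within the 15 libraries the genes did not all move together. S100b was highest in lemborexant 6 at 566 CPM, vehicle 5 at 446 CPM and vehicle 3 at 388 CPM, and these 3 libraries were also the 3 highest for Gfap, at 8699, 8507 and 6163 CPM, and for Cst7, at 131, 144 and 122 CPM. Slc1a2 was lowest of the 15 in lemborexant 7 at 919 CPM and vehicle 5 at 1121 CPM, and Fgfr3 was lowest in vehicle 5 at 76.0 CPM. Over 13 units, the 15 libraries with nearly alike ones averaged, Aldoc and S100b had the highest Pearson r of any pair of the 10 genes (0.811) and Aldh1l1 and Fgfr3 the lowest (-0.633). Sums of regional and cell type genes and mitochondrial shares differed between these units, and their part in these r values was not tested. Mitochondrial transcripts took 7.19% of reads in lemborexant 6, 7.76% in vehicle 5 and 8.22% in vehicle 3, within a range of 4.32% to 9.002% over all 19 libraries. Oligodendrocyte genes summed to 15431.5 CPM in lemborexant 6, 5627.6 CPM in vehicle 5 and 8493.1 CPM in vehicle 3. The part of either in the S100b values was not tested.

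**Figure D4:**
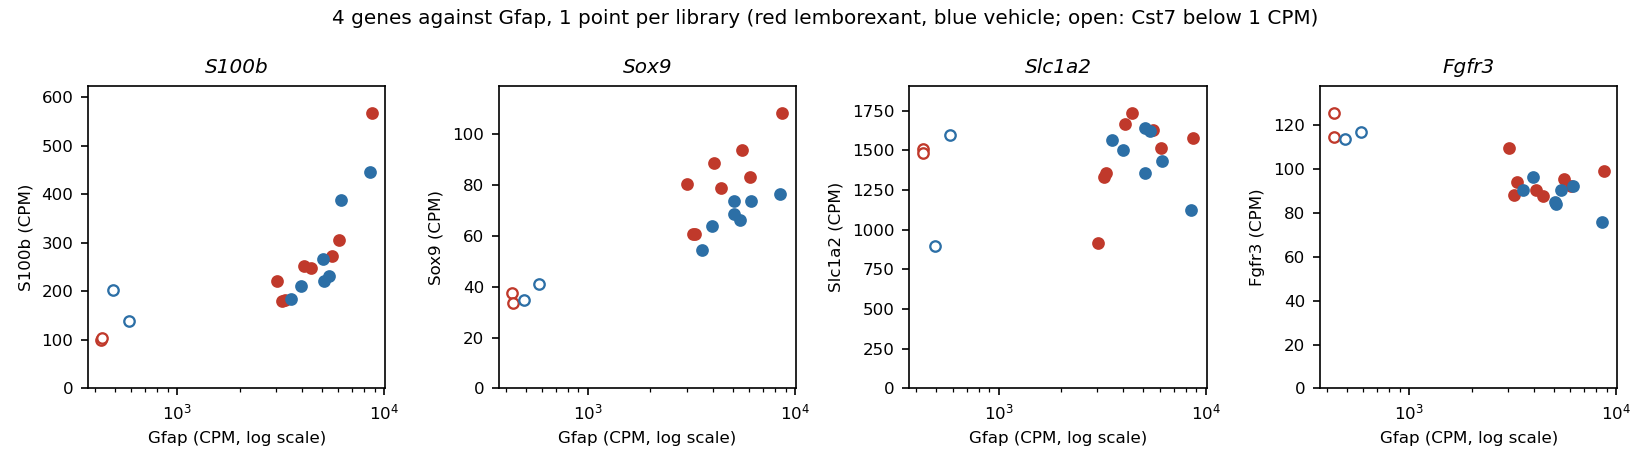
S100b, Sox9, Slc1a2 and Fgfr3 in CPM against Gfap in CPM on a log axis, 1 point for each library, red for lemborexant and blue for vehicle, open where Cst7 is below 1 CPM. The 4 open points lie at 430.5 to 582 CPM of Gfap, where Sox9 is at 33.6 to 41.0 CPM, and S100b reaches 566 CPM in the library with the most Gfap.

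Levels of different genes were set side by side per length, in TPM. Over 19 libraries the median TPM was 1881 for Aldoc, 516 for Glul, 455 for Slc1a3, 281 for Gja1, 229.9 for S100b, 197 for Slc1a2, 149 for Gjb6, 46.7 for Aldh1l1, 38.6 for Fgfr3 and 29.5 for Sox9. Only 2 steps of this order had ranges that did not overlap over libraries, the 3.65-fold step between Aldoc and Glul and the 3.19-fold step between Gjb6 and Aldh1l1. The order of the other neighbours was not the same in every library, except that Slc1a3 was above Gja1 in 19 of 19. Slc1a2 ranked below Slc1a3 per length although its CPM was higher. Enzymes of glycolysis and glutamine synthesis thus stood at the top of the order and the receptor and transcription factor genes at the bottom.

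**Figure D5:**
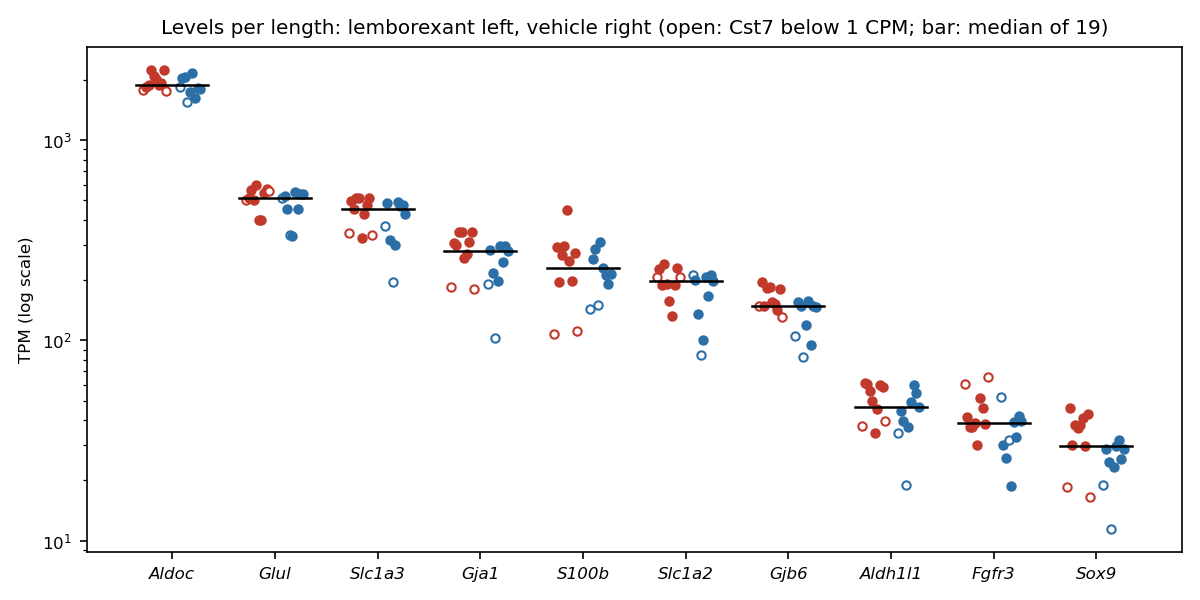
TPM of each gene in 19 libraries on a log axis, ordered by median (bar), with 10 lemborexant libraries in red at the left and 9 vehicle libraries in blue at the right of each gene and open circles for Cst7 below 1 CPM. Aldoc, with a median of 1881 TPM, lies clear of Glul at 516 TPM, and Aldh1l1, Fgfr3 and Sox9 lie clear of Gjb6 at 149 TPM.

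The genes whose pattern over libraries was most like the mean of the 10 were Blnk, Nfe2l2, Scamp2, Clu and Rab31. They had the highest Pearson r of 10341 other genes with a mean of at least 10 CPM, at 0.973, 0.971, 0.971, 0.969 and 0.968 over 16 units (19 libraries with nearly alike ones averaged). Over the 13 units with gliosis r was 0.936 for Blnk, 0.949 for Nfe2l2, 0.928 for Scamp2, 0.948 for Clu and 0.930 for Rab31. The order differed there: Dazap2 at 0.956 and Fli1 at 0.950, named after their values were seen, had the highest r over the 13 units, and of the 5 genes Nfe2l2 and Clu were among the 10 highest. Without lemborexant 7 and 6, r over 11 units was 0.874 for Blnk, 0.900 for Nfe2l2, 0.944 for Scamp2, 0.905 for Clu and 0.874 for Rab31. Clu encodes clusterin, which astrocytes secrete, Nfe2l2 encodes the oxidative stress regulator NRF2, and Blnk is an adaptor of immune cell receptors. Microglia genes were also among the 20 with the highest r over 16 units. These were Spp1 (0.967), Cd68 (0.964) and Ctsd (0.962) of the activated and Cx3cr1 (0.965) of the homeostatic microglia genes, named after their values were seen. The pattern is thus not one of astrocyte genes alone. The 16 units lie on both sides of the split by gliosis described above, and its part in these r values was not tested.

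Treatment was also read in wider lists of these pathways, some of which hold genes of the 10. Of the 30 other homeostatic astrocyte genes, 0 passed in edgeR, where 2.61% of all genes tested did. Their log2 changes were above 0 for 18 and below 0 for 12, with a median of 0.09. In edgeR 6 had an unadjusted p under 0.05, as did 4911 of all 19105 genes tested. The smallest p belonged to Gpc5, a proteoglycan gene, at -0.21 (edgeR adjusted p = 0.110), Sparcl1, which encodes the synapse-associated protein hevin, at 0.23 (adjusted p = 0.111), and Slc6a11 at 0.74 (adjusted p = 0.120). Of 10 connexin and potassium genes, which include Gja1 and Gjb6, 0 passed and 9 were above 0. Among them Kcnj10 was at 0.45 ± 0.20 (edgeR adjusted p = 0.165). Without the 4 libraries lacking gliosis 10 of the 10 were above 0 and 2 passed, where 2.71% of all genes did: Gjc3, a connexin gene of myelinating glia, at 0.59 ± 0.14 and Kcnj10 at 0.51 ± 0.12 (edgeR adjusted p = 0.0368 for both). Kcnj10 is also the 1 gene of the 30 that passed there, with 87.9 to 151 CPM in 8 lemborexant and 70.4 to 102 CPM in 7 vehicle libraries. With the pairs summed as well, 0 genes of either list passed, where 0% of all genes did (Kcnj10 edgeR adjusted p = 0.0596).

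In each list given here 1 gene passed, where 2.61% of all genes tested did. Of 12 genes of glutamate and glutamine handling, Slc38a1, a glutamine transporter gene expressed mainly in neurons, rose by 0.62 ± 0.15 in log2 (edgeR adjusted p = 0.0377). The other 11, which include Slc1a2, Slc1a3 and Glul, did not pass. The 18 genes of FGF, SOX and NFI regulation include Sox9 and Fgfr3. Of these 18, Etv4, an FGF-responsive transcription factor gene, had a log2 change of -0.51 ± 0.13 and so fell (edgeR adjusted p = 0.0457). Etv4 was at 1.80 to 2.89 CPM in lemborexant and 2.63 to 4.42 CPM in vehicle libraries. Of 20 reactive astrocyte genes, Fbln5, an elastic fibre gene, rose by 0.89 ± 0.20 (edgeR adjusted p = 0.0317), while Gfap was at -0.14 ± 0.52 (adjusted p = 0.890). With nearly alike libraries summed, 0 genes of these lists passed, where 0% of all genes did (edgeR adjusted p = 0.0988 for Slc38a1, 0.09997 for Etv4 and 0.0780 for Fbln5). Without the 4 libraries lacking gliosis, where 2.71% of all genes passed, the Etv4 call was lost (edgeR adjusted p = 0.0977), while Slc38a1 (0.0437) and Fbln5 (0.0253) still passed.

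Astrocytes of different brain regions express partly different genes, and no direction over regions is drawn from the few genes given here. Of 3 tested genes of diencephalic astrocytes, 3 were above 0 and Agt, the angiotensinogen gene, passed in edgeR, where 2.61% of all genes tested did. Over all genes tested, 0.194% had no overlap between treatments. Agt was at 80.9 to 469 CPM in lemborexant and 36.5 to 76.0 CPM in vehicle libraries, without overlap, with a log2 change of 1.34 ± 0.30 (edgeR adjusted p = 0.0298, 0.0714 with the pairs summed and 0.0404 without the 4 libraries lacking gliosis). Lemborexant 7, which had the highest thalamus and diencephalon sum, also had the highest Agt, and it had the lowest Slc1a2 among the 15 libraries with gliosis and the lowest Glul of all 19. With the mean level of the hippocampal genes as a covariate, 0 of the 10 homeostatic genes passed in edgeR, where 0% of all genes did and 3145 had an unadjusted p under 0.05. The 10 log2 changes then ran from -0.88 ± 0.35 for S100b to 0.19 for Fgfr3, with 9 of 10 below 0, against 5 of 10 without the covariate. S100b then had a 95% interval of -1.61 to -0.16 (edgeR p = 0.0199, adjusted p = 0.300). The hippocampal genes summed to 141 to 637 CPM in the 15 libraries with gliosis and 563 to 792 CPM in the 4. Only 1 of the 12 had the higher median in the 15, so region and gliosis cannot be told apart in this covariate. The covariate also followed treatment, at 0.39 to 0.76 in vehicle and -1.36 to 0.40 in lemborexant libraries (mean centred log2 CPM). Region and treatment can therefore not be told apart in this fit, and no region-adjusted effect is read from it.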

How the data were processed

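Cortex RNA was sequenced in 10 lemborexant and 9 vehicle libraries, grouped by the labels' treatment field and numbered within each group in accession order. Per the labels' protocols, RNA was isolated with TRIzol and a silica column kit and libraries were made with a SMARTer Ultra Low kit. Per the submitters' processing notes, bcl2fastq and DRAGEN 3.9.3-8 were used with GRCm38. Which annotation, strand setting or filter they used is not given in the sources used here.

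Per the file headers, the deposited tables list 55487 genes with their effective length, TPM value and estimated count (NumReads). The deposited TPM values served for comparing levels between genes and for 2 alternatives. Estimated counts were rounded. GENCODE M21 gave a symbol for 55227 identifiers. Treatment was tested with the quasi-likelihood method of edgeR 4.0.16 (R 4.3.3; robust, TMM factors, edgeR's expression filter, two-sided, Benjamini-Hochberg over 19105 genes, threshold 0.05). An SE is the log2 change divided by the square root of F, and 95% intervals use the fit's degrees of freedom. The Cst7 limit of 1 CPM divides libraries on a measured level and received no test. Correlations used log2 CPM with a prior count of 2.

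The 10 genes and all other lists were chosen with earlier results of these data known. Apart from the 10, genes named are the 3 of smallest p in a list, a panel (Gfap, Vim, Serpina3n, C4b, Cst7, Snap25, Kcnj10, Slc7a10, Prnp and others), the 5 most alike, and those listed as not overlapping. The result of 1 regional astrocyte list is not reported here. Mlc1, the regional sums and the oligodendrocyte, oligodendrocyte precursor and endothelial sums were picked after their values were seen. Alternatives were RLE factors, no filter, DESeq2 1.42.0, limma 3.58.1 (voom, log2(TPM + 1), log2(TPM + 0.1)), summed pairs, number ranges, libraries left out, a hippocampal covariate and a threshold of 0.1. The fits were tested on simulated data. With at least 20185098 reads in each library, counting error on these genes was small beside the spread between libraries.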

Additional observations from a re-analysis of the deposited data

Results flagged for a closer look

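Of 20 sets of values, each of the 10 genes in each treatment group, 3 held a library far from the others by Dixon's gap over range, where chance gives about 1 in 20. Slc1a2 was at 919 CPM in lemborexant 7, and the nearest of the other lemborexant libraries was at 1334 CPM (gap over range 0.511, critical value 0.466 for 10). Glul was at 508 CPM in the same library, with the nearest at 662 CPM (0.474). Lemborexant 7 also had the highest sum of thalamus and diencephalon genes, 2178 CPM. S100b was at 566 CPM in lemborexant 6, with the nearest at 305 CPM (0.561), and that library had the highest Gfap of all 19, 8699 CPM. It also had the highest sum of oligodendrocyte genes, 15431.5 CPM.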

How the results depend on the processing

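No paired analysis was possible because the labels give no replicate numbers. Under 34 alternatives, 0 of the 10 genes passed the threshold in any, with a lowest adjusted p of 0.0910 (Gjb6 on log2(TPM + 1)); of 330 values 291 kept their direction. The other 39 changed sign, with none past the threshold and the cause not tested. On log2(TPM + 1), which moves the median of all genes to 0.18 (0.20 with 0.1), Slc1a3 was at 0.20, Glul at 0.14, Aldh1l1 at 0.26, Aldoc at 0.0888 and S100b at 0.0629, and with 0.1 at 0.20, 0.14, 0.26, 0.0889 and 0.0628. Slc1a2 was at -0.00411 and Aldh1l1 at 0.0354 with voom. In libraries numbered 859 to 933, Slc1a2 was at -0.0258, Gja1 at -0.12, Gjb6 at -0.00193 and Aldoc at 0.0515, and in those numbered 1064 to 1602 Aldh1l1 was at 0.0146. Slc1a2 was at -0.00191 without the 4 libraries lacking Cst7 and at -0.0182 with pairs also summed. S100b was at 0.0893 with pairs summed and 0.10 without the 4 as well. Aldh1l1 was at 0.065 without lemborexant 7 and vehicle 7. With the hippocampal covariate, which itself followed treatment, Slc1a2 was at -0.021, Gja1 at -0.25, Gjb6 at -0.11 and Sox9 at -0.42. Leaving out 1 library gave Slc1a2 -0.0121 to 0.11, Aldh1l1 -0.10 to 0.04 and S100b -0.29 to 0.0756. The count of all genes past the threshold, 498, was 254 without the filter, 1811 with DESeq2, 2217 with voom, 118 and 26 on TPM, 0 with pairs summed (4102 genes at an unadjusted p under 0.05 in edgeR) and 0 without the 4 libraries as well (3928). It was 294 with number range as covariate, 8 in numbers 1064 to 1602, 0 in 859 to 933 (910), 307 without lemborexant 7 and vehicle 7, 0 with the hippocampal covariate (3145), 2137 at a threshold of 0.1, and 31 (without lemborexant 9) to 1274 (without vehicle 8) with 1 library left out.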
